A study of Flaveria robusta and Flaveria sonorensis and Flaveria ramosissima with 24 samples.

Results

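Flaveria ramosissima is a C3-C4 intermediate, in a genus of daisy relatives that holds C3, C4 and intermediate species. Its leaf transcriptome was compared between plants kept for 2 weeks at low CO2 and plants kept in control air. The genes described were those with a mean TPM (a length-corrected share of the library's transcripts) of 1 or more over the 6 libraries of this species. They were 15899 of the 29562 rows of the deposited table. Of the other rows, 9171 had a mean above 0 but below 1, and 4492 were listed at 0 in all 6 libraries. The genes nearest to the threshold had mean TPM of 1.00 inside it and 0.998 outside it.

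The low CO2 group was 3 libraries of F. ramosissima kept for 2 weeks at a CO2 setting of 100, and the control group was 3 libraries of the same species at a setting of 380. The labels write both settings in µmol m-2 s-1, a unit of light flux and not of CO2, and the sources used here leave its meaning unsaid. All plants shared light of 200 µmol m-2 s-1, a temperature of 22 °C, days of 16 h light and 8 h dark, and 70% humidity. RNA came from mature leaves that had newly expanded, and was sequenced as paired reads of 150 bp. The same experiment was done in F. robusta (C3), F. sonorensis (C3-C4) and F. trinervia (C4), with 3 libraries in each of their groups and 24 libraries over the 4 species. No genotype, accession of the plant or plant age is given, and nothing says that libraries of a group came from separate plants. The p-values therefore measure the spread between these libraries, which may be technical.

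When CO2 is scarce, Rubisco, the enzyme that fixes CO2, takes up more oxygen, and the product of that reaction has to be recycled by photorespiration with a loss of CO2. In C3-C4 intermediates of Flaveria, part of the recycling takes place in the bundle sheath cells around the veins, where the released CO2 can be fixed again. C4 species instead pump CO2 into these cells through a cycle of C4 acids. The comparison asks how an intermediate species adjusts its leaf transcripts when less CO2 is supplied. The deposited gene IDs are not paired with gene names in the files, so genes are described by their level, their class of abundance and their response, and no role is given to any of them.

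Low CO2 libraries 1 and 2 stood apart from each other, with most genes below 100 TPM lower in library 1 and higher in library 2, and counts of called genes are given below with and without each library. The response is shown by 4 genes, the 2 with the largest rise and the 2 with the largest fall among genes called both with and without replicate number as a block and with a mean TPM of at least 10. A gene was called where the Benjamini-Hochberg adjusted p of limma on log2(TPM + 1) was below 0.05. Fold changes are on that log2 scale, low CO2 minus control, with their standard error (SE), and they understate the change of genes with low TPM.

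Gene15647 had 399, 937 and 866 TPM in the low CO2 libraries 1, 2 and 3, against 125, 80.2 and 96.3 TPM in the control libraries. The groups did not overlap, and low CO2 library 1 was the lowest of its group. Its log2 fold change was 2.78 (SE 0.331, adjusted p = 0.0213 by limma). In all 18 libraries of the other 3 species this row was listed at 0.

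Gene24861 had 966, 1765 and 1762 TPM in the low CO2 libraries, against 371, 192 and 232 TPM in the control libraries. Again the groups did not overlap, and library 1 was the low CO2 library nearest to the controls and the highest of the controls. The log2 fold change was 2.50 (SE 0.307, adjusted p = 0.0218 by limma).

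Gene04344 had 5.24, 1.98 and 2.90 TPM in the low CO2 libraries, against 33.8, 77.4 and 57.2 TPM in the control libraries. Every control library lay above every low CO2 library, while the controls differed among themselves by more than the low CO2 libraries did in TPM. The log2 fold change was -3.70 (SE 0.363, adjusted p = 0.0155 by limma).

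Gene06805 had 5.82, 5.34 and 7.04 TPM in the low CO2 libraries, against 38.5, 120 and 79.8 TPM in the control libraries. The low CO2 libraries were close to each other and the controls spread widely, with no overlap between the groups. The log2 fold change was -3.37 (SE 0.375, adjusted p = 0.0156 by limma). For these 4 genes the direction was kept under every alternative tried, but none was called when low CO2 replicate 2, low CO2 replicate 3 or control replicate 2 was left out. Without control replicate 3 the adjusted p of limma was 0.0627 for Gene15647, 0.0666 for Gene24861, 0.0584 for Gene06805 and 0.0490 for Gene04344, so that only Gene04344 was still called. Without low CO2 replicate 1, Gene06805 was not called (adjusted p = 0.0750 by limma) and the others were.

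**Figure D1:**
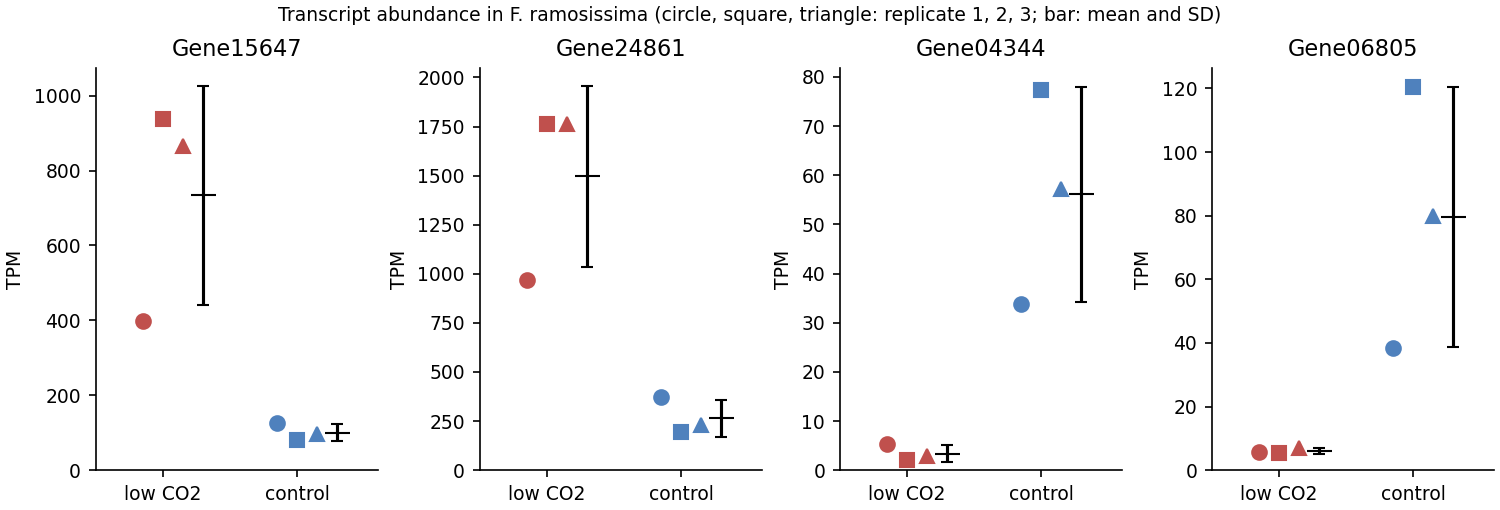
TPM (vertical axes, linear and from 0, with a scale of their own for each gene) of the 4 named genes in the 3 low CO2 and the 3 control libraries of F. ramosissima. Each point is a library, its shape gives the replicate number, and the bar is the mean with its SD (n = 3 each). In Gene15647 the low CO2 libraries lie between 399 and 937 TPM, above controls between 80.2 and 125 TPM, and in Gene04344 they lie between 1.98 and 5.24 TPM, below controls between 33.8 and 77.4 TPM.

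Over the whole leaf transcriptome few genes were called. Among the 15899 genes tested there were 46 calls (0.289%), with 16 genes higher at low CO2 (0.101%) and 30 genes lower (0.189%). The log2 fold changes of the 16 higher genes lay between 1.28 and 2.78 with a median of 1.47, and those of the 30 lower genes between -3.70 and -1.14 with a median of -2.02. Over all tested genes the median log2 fold change was 0.00. At an unadjusted p below 0.05 there were 1539 genes (9.68%), 678 higher and 861 lower.

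A change of 2-fold or more on this scale was found for 435 genes (2.74%), 154 higher (0.969%) and 281 lower (1.77%). Of the 435, 46 were called. Low CO2 libraries all lay above control libraries for 1076 genes (6.77%) and all below them for 1170 genes (7.36%). All 46 called genes belonged to these, which a call on the same values favours in advance. No called gene was listed at 0 in a whole group. Among the genes tested, 3 were at 0 in all low CO2 libraries, with a control mean of at most 5.39 TPM, and 0 were at 0 in all control libraries.

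The largest difference of all belonged to a gene that was not called without the block. It had 0.00, 3.19 and 0.00 TPM in the low CO2 libraries, against 291, 55.0 and 16.6 TPM in the control libraries (log2 fold change -5.36, SE 0.943, adjusted p = 0.0741 by limma). The second largest difference of an uncalled gene was 27.9, 18.3 and 10.7 TPM in the low CO2 libraries against 772, 122 and 166 TPM in the control libraries (log2 fold change -3.75, SE 0.637, adjusted p = 0.0650 by limma). In both, control library 1 stood far above the other control libraries, and this was also so in the next 2 uncalled genes by size of change, with log2 fold changes of -2.68 and -2.58.

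Leaving out 1 library changed the count of called genes. Without control replicate 1 there were 46 called genes, without control replicate 3 there were 12, and without low CO2 replicate 1 there were 8. Without low CO2 replicate 2, low CO2 replicate 3 or control replicate 2, limma called 0 genes, and an unadjusted p below 0.05 was reached by 1827, 776 and 1378. The group left with fewer libraries is assumed here to vary like the other.

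The genes were divided by mean TPM over the 6 libraries, which favours neither group. The lowest class, 1 to under 10 TPM, held 9960 genes, and 14 of them were called (0.141%), with 5 higher at low CO2 and 9 lower. Among the 4842 genes from 10 to under 100 TPM there were 25 calls (0.516%), with 6 higher and 19 lower genes. Of the 965 genes from 100 to under 1000 TPM, 6 were called (0.622%), with 5 higher and 1 lower at low CO2. Among the 132 genes at 1000 TPM or more, 1 was called (0.758%), and it was lower. Beside the 0.289% of all genes, the share called was lowest in the lowest class, while the counts of the upper classes are too small to order them.

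The single called gene of the highest class had 1280, 744 and 913 TPM in the low CO2 libraries, against 2277, 3745 and 3131 TPM in the control libraries. The groups did not overlap, and its log2 fold change was -1.65 (SE 0.243, adjusted p = 0.0414 by limma). With median-of-ratios scaling, in which each library is divided by the median ratio of its genes to their geometric mean, the adjusted p of limma was 0.154.

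Within the class of 100 to under 1000 TPM, the lower gene had 99.8, 122 and 120 TPM in the low CO2 libraries, against 246, 250 and 258 TPM in the control libraries. Both groups were tight and far apart, with a log2 fold change of -1.14 (SE 0.169, adjusted p = 0.0414 by limma). A higher gene of this class had 633, 607 and 729 TPM at low CO2 against 299, 237 and 225 TPM in the controls (log2 fold change 1.37, SE 0.176, adjusted p = 0.0241 by limma). With median-of-ratios scaling neither of these calls held, with adjusted p = 0.0587 for the lower and 0.0875 for the higher gene by limma. The 10 most abundant genes of the leaf, with means between 7894 and 23660 TPM, had log2 fold changes between -0.42 and 0.20, and none was called by limma (adjusted p between 0.560 and 0.999). The first of them had 26264, 14801 and 20348 TPM in the low CO2 libraries, against 26326, 23295 and 30925 TPM in the control libraries, so the groups overlapped.

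**Figure D2:**
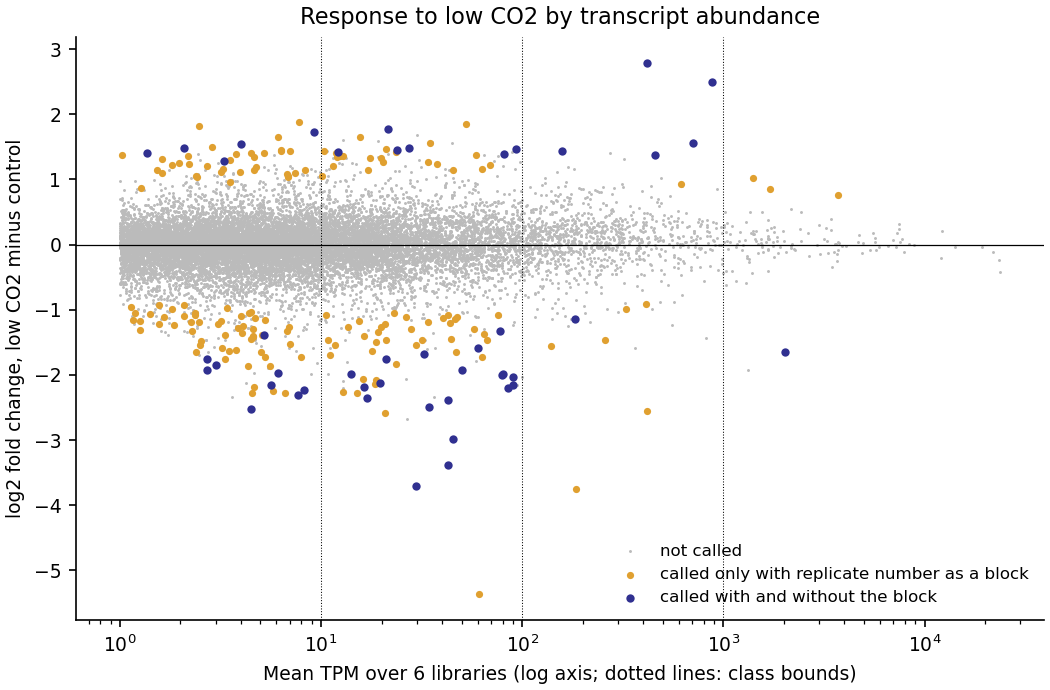
Log2 fold change, low CO2 minus control (vertical axis), against the mean TPM over 6 libraries (horizontal log axis) for the 15899 genes tested. Each point is a gene, dark points are the 46 genes called with and without the block, lighter coloured points are the 160 called with the block only, and dotted lines are the class bounds. Called genes lie at the outer edge of the cloud in every class, and the lower ones reach further from 0 than the higher ones.

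The median log2 fold change was 0.08 for the genes from 100 to under 1000 TPM, against -0.01, 0.00 and 0.03 in the classes of 1 to under 10, 10 to under 100, and 1000 or more. This shift was smaller than the spread of the class medians between libraries of a group (pooled SD 0.0965). With median-of-ratios scaling the median of this class was 0.09, against -0.01, 0.01 and 0.04 in the other classes. With quantile normalization it was 0.03, against 0.02, 0.02 and 0.00. That normalization gives all libraries the same distribution of values, so it brings such class medians together in advance. In the class of 100 to under 1000 TPM, 14.0% of genes had all low CO2 libraries above all controls and 7.56% had them all below. The background over all genes was 6.77% and 7.36%. With median-of-ratios scaling these shares were 14.4% and 7.46% in this class, and 9.45% and 9.60% over all genes. Summed over the class, these genes took 27.0, 30.8 and 29.2% of the TPM in the low CO2 libraries, against 29.2, 28.5 and 25.9% in the control libraries. The sums overlapped, and the exact two-sided permutation test gave p = 0.5 (adjusted p = 1 over the 10 library measures tested), where 3 libraries against 3 allow no p below 0.1.

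The precision differed between classes. The median SD between replicate libraries on the log2 scale was 0.283, 0.299, 0.247 and 0.215 in classes of rising abundance. The median SE of a fold change was 0.236, 0.243, 0.207 and 0.168 in the same classes. The smallest log2 fold change, in size, among called genes was 1.28, 1.32, 1.14 and 1.65 in these classes, so smaller responses than these were not called in any class.

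The libraries of the low CO2 group differed from each other in a way that the groups do not explain. On the TPM scale the median deviation of a gene from its 6-library mean was -0.21 in low CO2 library 1, 0.22 in library 2 and 0.00 in library 3. In the control libraries it was -0.01, 0.08 and -0.06. The genes at 1000 TPM or more went the other way, with medians of 0.18, -0.14 and 0.01 in the low CO2 libraries and -0.05, -0.06 and 0.09 in the controls. These genes took 55.9, 45.4 and 50.5% of the TPM in the low CO2 libraries, against 49.9, 49.4 and 54.6% in the control libraries. The low CO2 libraries enclosed the range of the controls at both ends (exact two-sided permutation p = 1, adjusted p = 1).

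The 100 most abundant genes of each library gave the same picture, with 52.0, 42.0 and 46.6% of the TPM in the low CO2 libraries, against 46.2, 45.6 and 50.6% in the control libraries. Between 14733 and 16254 genes reached 1 TPM in the low CO2 libraries, and between 15408 and 16104 in the controls. The 10 measures taken per library, from the TPM total to the shares of the 4 classes, gave exact permutation p-values between 0.2 and 1. The TPM listed in the rows added up to between 913321 and 925049 in the low CO2 libraries and between 910078 and 916362 in the controls. Spearman correlations between libraries were 0.941 to 0.972 within low CO2, 0.916 to 0.947 within the controls and 0.910 to 0.958 between the groups. At most 0.127% of genes at 10 TPM or more had identical values in a pair of libraries, so no library was a copy of another. This does not show that the libraries came from separate plants. Each library was counted on its own.

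**Figure D3:**
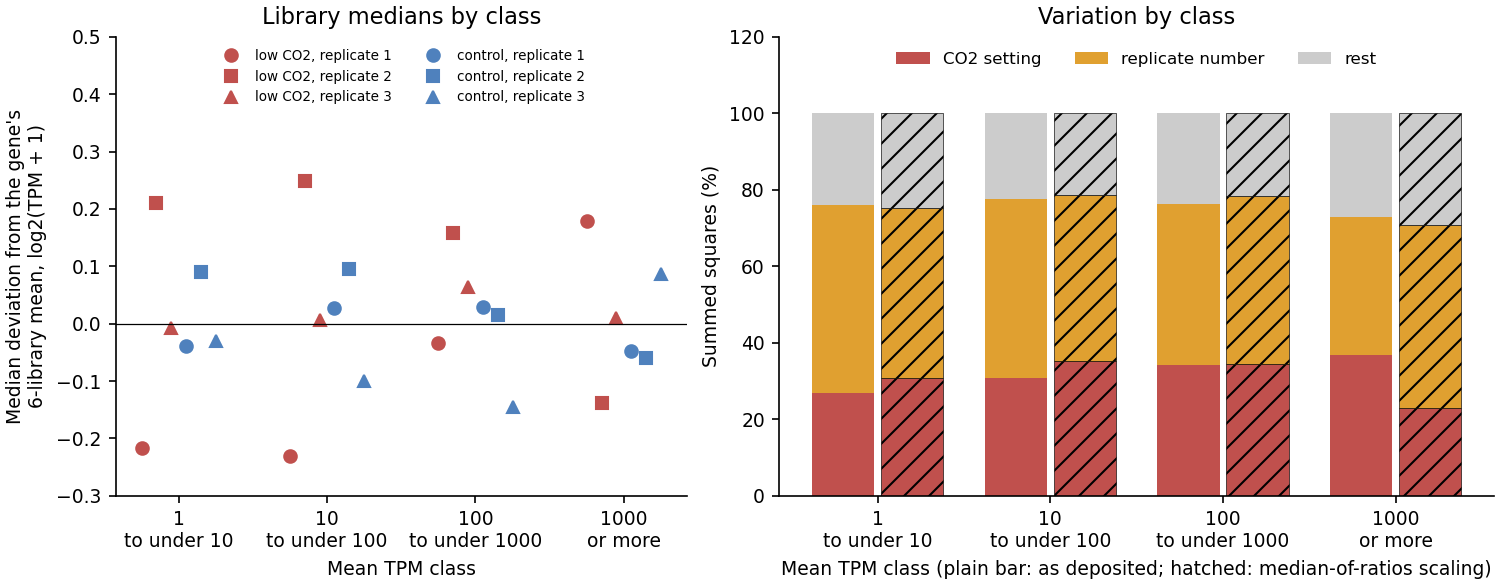
The left plot gives the median, over the genes of a class, of the deviation from the gene's 6-library mean in log2(TPM + 1), with a point for each library. The right plot gives the share of summed squares in percent that went with the CO2 setting, the replicate number and the rest, in 4 classes of mean TPM, as deposited and with median-of-ratios scaling. Low CO2 libraries 1 and 2 lie at opposite ends in the classes below 100 TPM and change places at 1000 TPM or more, and the replicate number takes 36.3 to 49.0% of the squares as deposited.

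The same numbers, 1 to 3, are used for the libraries of both groups, and the labels do not say that a number marks a shared plant, tray, day or batch. To see whether same-numbered libraries varied together, the deviation of each low CO2 library from its group mean was correlated across genes with that of each control library. The correlation was 0.34 for number 1, 0.47 for number 2 and 0.0958 for number 3. Genes are not independent replicates, and the 3 deviations of a group add up to 0, so these values are a description. Every low CO2 library correlated best with the control library of its own number. Number 3 did not exceed the 0.1 set for a pairing, so the libraries are treated as sharing only a number. At 1000 TPM or more the order was different, since low CO2 library 1 correlated best with control library 3 (0.51, against -0.13 for control library 1).

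Split into parts, the squared deviations of all tested genes went to the CO2 setting for 28.8%, to the replicate number for 47.7% and to the rest for 23.4%. By degrees of freedom alone, 20%, 40% and 40% would go to these parts. From the lowest to the highest class the share of the CO2 setting was 26.9, 30.8, 34.1 and 36.7%, and that of the number was 49.0, 46.8, 42.2 and 36.3%. With median-of-ratios scaling the share of the CO2 setting was 30.7, 35.3, 34.5 and 23.1% instead, so the order of the classes depended on the scaling.

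In the fit with a block for replicate number, limma called 206 genes (1.3%), 77 higher at low CO2 (0.484%) and 129 lower (0.811%). They contained all 46 genes called without the block. By class there were 103 (1.03%), 86 (1.78%), 13 (1.35%) and 4 (3.03%) called genes. At an unadjusted p below 0.05 the block gave 2295 genes, against 1539 without it. The median SD left between libraries was 0.223 with the block and 0.285 without it.

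The 160 genes called only with the block were of lower abundance, with a median mean TPM of 6.81, against 28.5 for the 46 called in both. In 139 of the 160 the groups did not overlap. Over all tested genes 6.77% had low CO2 above and 7.36% had it below, but a call on the same values favours such genes in advance. Both uncalled genes with the largest falls, described above, were among them, with adjusted p = 0.0196 and 0.00726 by limma under the block. The 4 named genes had to be called with the block to be named, so their calls here add no support. Their adjusted p of limma with the block was 0.0123 for Gene15647, 0.0160 for Gene24861, 0.00726 for Gene04344 and 0.00726 for Gene06805. With the block and median-of-ratios scaling together the adjusted p of limma lay between 0.0604 and 0.0611.

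Of the 4 genes at 1000 TPM or more called with the block, 3 were higher at low CO2. The most abundant of them had 5051, 4518 and 4513 TPM in the low CO2 libraries, against 2877, 2835 and 2602 TPM in the control libraries, with no overlap (log2 fold change 0.76, SE 0.120, adjusted p = 0.0535 without and 0.0357 with the block by limma). The next had 1843, 2440 and 2263 TPM in the low CO2 libraries, against 996, 1451 and 1196 TPM in the control libraries. In the last, with 2411, 1341 and 1804 TPM at low CO2 against 1490, 609 and 765 TPM in the controls, the groups overlapped, and library 1 was the highest of either group.

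The effect of the block depended on the scaling. With the block and median-of-ratios scaling together, 19 genes were called, 3 higher and 16 lower, in classes of 11, 7, 1 and 0 genes. With median-of-ratios scaling alone there were 34, of which 7 were higher and 27 lower, and 5 of the 16 higher and 23 of the 30 lower genes kept their call. Without both libraries of number 1, 2 or 3, the block fit called 17, 176 or 621 genes, each time with only 1 degree of freedom left among the libraries.

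The replicate number itself was tested by the F test of limma next to the CO2 setting. It called 70 genes (0.44%), 41, 24, 5 and 0 in classes of rising abundance, and 2464 genes had an unadjusted p below 0.05. With median-of-ratios scaling or quantile normalization limma called 0 genes for the number, with 1930 and 1901 genes at an unadjusted p below 0.05. None of the 46 genes called for low CO2 was among the 70, which says little where 0.44% of all genes were called for the number. Leaving out 1 library at a time moved the count between 0 and 1833, with 0 when low CO2 replicate 1 or control replicate 1 was left out (2815 and 3024 genes at an unadjusted p below 0.05), 1833 when low CO2 replicate 3 was, and 1009 when control replicate 3 was.

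**Figure D4:**
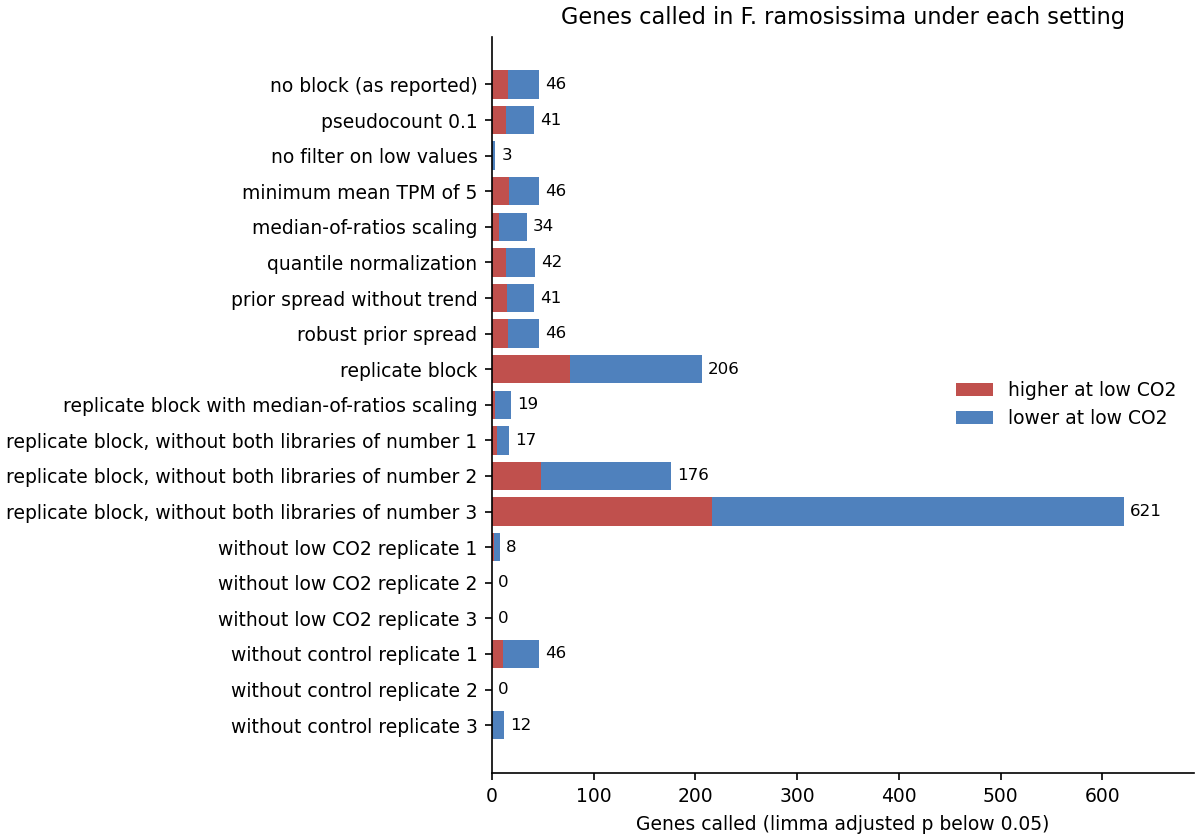
Genes called by limma at an adjusted p below 0.05 in F. ramosissima (horizontal axis, from 0), higher and lower at low CO2, under each setting (1 bar a setting). The count is 46 as reported and 206 with the replicate number as a block, and lies between 0 and 46 when 1 library is left out.

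Some of the called genes carried neighbouring ID numbers. Of the 46 genes, 12 had another called gene within 3 ID numbers, and they fell into 3 runs. In the longest run, 7 of the 8 genes tested in a span of 8 IDs were called, all lower at low CO2, with log2 fold changes between -2.39 and -1.99. Their summed TPM was 134, 135 and 105 in the low CO2 libraries, against 426, 715 and 635 in the control libraries. These sums did not overlap, and each of the 7 genes had a mean between 14.1 and 90.1 TPM. With median-of-ratios scaling 5 of the 7 were called.

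A second run of 3 called genes within 4 IDs was higher at low CO2, with log2 fold changes between 1.44 and 1.77. Its summed TPM was 1207, 1325 and 1407 in the low CO2 libraries, against 524, 372 and 461 in the control libraries. With median-of-ratios scaling only 1 of the 3 was called by limma, and the others had adjusted p = 0.0587 and 0.0857. The third run was a pair of lower genes of low abundance, with sums of 2.21, 2.09 and 3.01 TPM in the low CO2 libraries, against 26.5, 25.7 and 13.6 TPM in the control libraries. What neighbouring numbers stand for, and whether such genes are near-identical copies between which reads can be split, cannot be told from the sources used here, so the division of the signal within a run is uncertain. Over all 8715 pairs of tested genes with consecutive IDs, the log2 fold changes had a Pearson correlation of 0.24 and a Spearman correlation of 0.20 across pairs, which share their 6 libraries.

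Part of the response lay in genes listed at 0 in the other species. Of the 46 called genes, 13 (28.3%) were at 0 in all 18 libraries of F. robusta, F. sonorensis and F. trinervia, against 2595 of the 15899 tested (16.3%). These were 4 of the 16 higher and 9 of the 30 lower genes, and 5 of the 9 belonged to the run of 7. A row at 0 in a species may mean that the gene was not transcribed or that its sequence was not matched there, which cannot be told apart. At the other end, 20 of the 46 called genes (43.5%) had a mean TPM of 1 or more in each of the 4 species, against 8863 of all tested genes (55.7%).

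Each of the other species was tested alone in the same way, with controls of its own. In F. robusta limma called 1187 genes higher (8.36%) and 5888 lower (41.5%) of 14194. In F. sonorensis it called 656 higher (4.54%) and 2225 lower (15.4%) of 14436. In F. trinervia it called 25 higher (0.18%) and 195 lower (1.41%) of 13873. These counts and shares, also used as background below, are on the TPM scale only, and their dependence on the scaling was not tested. On that scale, the log2 fold change in F. ramosissima minus that in F. robusta had a median of 0.40 over 8863 genes. Against F. sonorensis and F. trinervia this median was 0.17 and 0.12. The median SD between replicate libraries was 0.285 in F. ramosissima, 0.219 in F. robusta, 0.246 in F. sonorensis and 0.293 in F. trinervia.

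Genes called lower in F. ramosissima were for the most part lower in the C3 species too. Of the 30, 20 were tested in F. robusta and 19 had a negative fold change. Of these 20, 17 were called lower there, against 41.5% of all genes tested in F. robusta. Counted over all 30, tested there or not, the 17 are 56.7%, and they are 0.289% of the genes called lower in F. robusta. In F. sonorensis 16 were tested and 14 had a negative fold change. Of these 16, 14 were called lower, against 15.4% of all genes tested there. The 14 are 46.7% of all 30, tested or not, and 0.629% of the genes called lower there. In F. trinervia 18 were tested and 17 had a negative fold change. Of these 18, 2 were called lower, against 1.41% of all genes tested there. The 2 are 6.67% of all 30, tested or not, and 1.03% of the genes called lower there.

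Of the 16 higher genes, 8 were tested in F. robusta, all 8 with a positive fold change. Of these 8, 5 were called higher there (31.2% of all 16, tested or not, and 0.421% of those called higher in F. robusta). In F. sonorensis 8 were tested, all 8 with a positive fold change. Of these 8, 4 were called (25.0% of all 16, tested or not, and 0.610% of those called there). Of all genes tested, 8.36% and 4.54% were called higher in these species. In F. trinervia 9 were tested, 6 had a positive fold change and limma called 0. None of the 46 was called in the opposite direction in any of the 3 species.

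Gene24861 was called higher in F. robusta (log2 fold change 1.47, adjusted p = 0.00576 by limma) and in F. sonorensis (2.26, adjusted p = 0.00076 by limma), while in F. trinervia its value was -0.42 (adjusted p = 0.556 by limma). Gene06805 was called lower in F. robusta (-2.16, adjusted p = 0.000654 by limma) and F. sonorensis (-4.11, adjusted p = 0.000364 by limma), with -1.26 in F. trinervia (adjusted p = 0.471 by limma). The difference of its response in F. ramosissima from the mean of the other species was -0.86 and not past the threshold (adjusted p = 0.422 by limma), and for Gene24861 it was 1.39, also not past it (adjusted p = 0.0540 by limma).

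**Figure D5:**
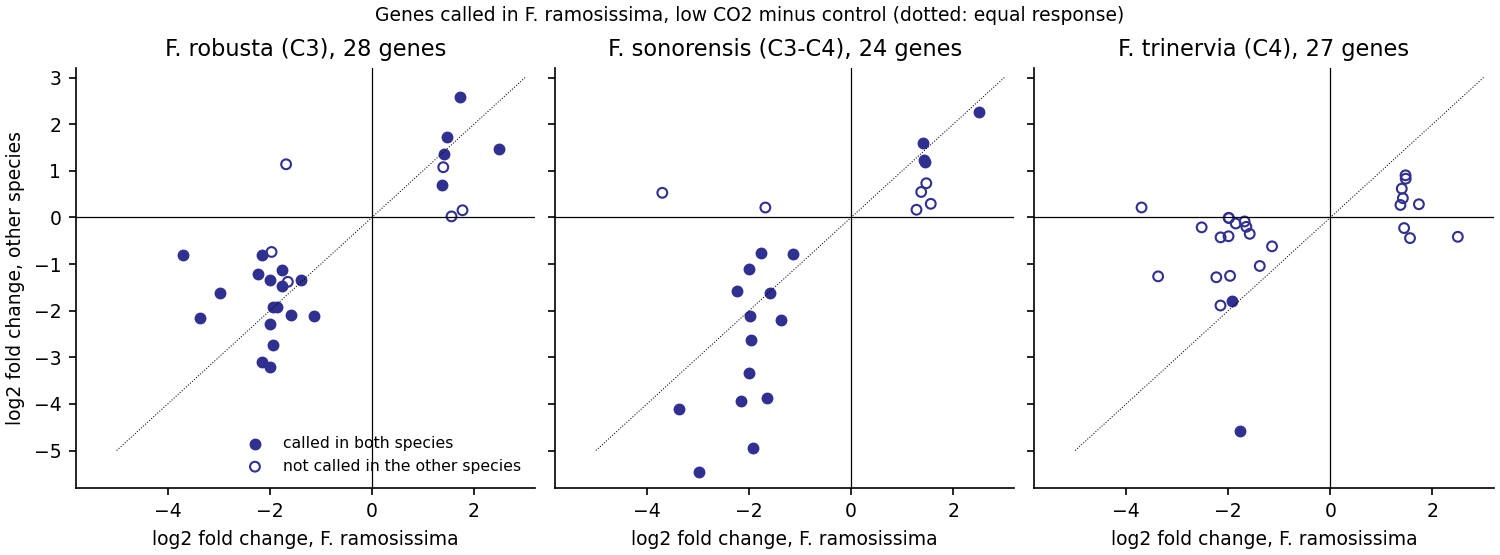
Log2 fold change, low CO2 minus control, in F. ramosissima (horizontal axes) and in each of the other species (vertical axes) for the genes called in F. ramosissima that were also tested there. Each point is a gene, filled where it was also called in the other species, and the dotted line marks an equal response. The points number 28 in F. robusta, 24 in F. sonorensis and 27 in F. trinervia, and 22, 18 and 2 of them are filled.

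In the other direction, the genes that responded in another species were followed in F. ramosissima. Of the genes called lower in F. sonorensis, 1750 were tested in F. ramosissima, where 76.7% had a negative fold change with a median of -0.22. Of those called higher in F. sonorensis, 515 were tested, and 76.3% had a positive fold change with a median of 0.25. For F. robusta the shares with the same sign were 61.4% of 4758 lower genes (median -0.07) and 59.3% of 924 higher genes (median 0.07). For F. trinervia they were 86.5% of 133 lower genes (median -0.55) and 23.1% of 13 higher genes (median -0.21). Over all tested genes the median was 0.00.

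Whether the response of F. ramosissima differed from that of its relatives was tested in 1 limma model over all 24 libraries, as its log2 fold change minus the mean of the other 3. Of 8863 genes with a mean TPM of 1 or more in each species, 146 differed (1.65%), 123 with a higher value in F. ramosissima (1.39%) and 23 with a lower one (0.26%). By class of abundance in F. ramosissima they were 72, 60, 12 and 2. The SD of the log2 fold changes over these 8863 genes was 0.355 in F. ramosissima, against 0.811 in F. robusta, 0.635 in F. sonorensis and 0.533 in F. trinervia.

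Most of the 146 genes moved little in F. ramosissima. The 123 with a higher value had a median log2 fold change of 0.25 there, against -1.62 in F. robusta, -0.92 in F. sonorensis and -0.85 in F. trinervia. The 23 with a lower value had a median of -0.64, against 0.82 in F. robusta, 0.28 in F. sonorensis and 0.21 in F. trinervia. Only 13 of the 146 had a change of 2-fold or more in F. ramosissima, and 3 of those with a lower value had also been called lower in F. ramosissima alone.

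Gene04344 was among the 23. It had been chosen for its fall in these same F. ramosissima libraries, so its p-value is no independent support. Its difference from the mean of the other species was -3.68 (SE 0.412, adjusted p = 8.89e-05 by limma), with log2 fold changes of -0.81 in F. robusta, 0.53 in F. sonorensis and 0.21 in F. trinervia. In both groups of these species its mean lay between 2.02 and 7.15 TPM. In F. ramosissima it was 3.37 TPM at low CO2 and 56.1 TPM in the controls. A fall of like size therefore had little room in the other species. The direction split of the 146 depended on the scaling. With median-of-ratios scaling 145 genes differed, 79 with a higher and 66 with a lower value, and with quantile normalization 182 differed, 87 with a higher and 95 with a lower value. The median difference over all 8863 genes was 0.24 on the TPM scale and 0.02 with median-of-ratios scaling. Without low CO2 replicates 1, 2 and 3 of F. ramosissima the count was 711, 12 and 11, and without its control replicates 1, 2 and 3 it was 19, 99 and 111.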

How the data were processed

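The deposited TPM are values the authors made, with 1 row per gene and 1 column per library over 24 libraries. The submitters' processing notes name RSEM and edgeR, without role or version, while the reference and the rule that joins genes of 4 species in a row were not found in the sources used here. TPM keep no depth, so counting error is unknown, and a rise of abundant transcripts lowers all others. Columns were matched to libraries by the labels, and 0 columns were left unused. Gene IDs could not be given names or sequences.

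Genes whose mean TPM reached 1 were tested on log2(TPM + 1) by limma 3.58.1 in R 4.3.3 (lmFit, then eBayes with trend, Benjamini-Hochberg below 0.05 over all genes tested), with no block, and again with replicate number as a block. Same-numbered libraries had correlations of deviations of 0.34, 0.47 and 0.0958, not all above 0.1. Values per library were compared by exact two-sided permutation tests. The difference between species was a contrast of 8 group means. Scripts were tested on simulated data. Figures used Python 3.11.15 and matplotlib 3.10.9.

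Alternatives were a pseudocount of 0.1, no filter, a minimum mean TPM of 5, quantile normalization, median-of-ratios scaling, other priors, the block, and leaving out each library. Leaving out libraries in the test of replicate number was added after seeing the data. At most 2 IDs higher and 2 lower are printed, the largest changes called in both fits with a mean TPM of at least 10. The genes and rules were chosen with earlier results of these data known.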

Additional observations from a re-analysis of the deposited data

Results flagged for a closer look

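The response to low CO2 differed between F. ramosissima and the mean of F. robusta, F. sonorensis and F. trinervia for 146 genes, by a limma contrast that tested the difference itself. Chosen for its fall in F. ramosissima, Gene04344 had a difference of -3.68 on the log2 scale by the same contrast. Its means in the other species lay between 2.02 and 7.15 TPM in both groups, which left little room for a fall. With median-of-ratios scaling the difference of Gene04344 was -3.94 (adjusted p = 0.000216 by limma). With quantile normalization it was -3.56 (adjusted p = 0.000537 by limma). Values that move with the count and directions of the 146 genes are the library medians of F. ramosissima and the scaling, both given above. Their part in that count and those directions was not tested.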

How the results depend on the processing

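TPM without depth, 3 libraries a group and IDs without names limit what can be said, and the cause of each change below was not tested. Without a filter the calls fell to 3 (0 higher, 3 lower, with 0, 2, 0 and 0 in classes of rising abundance and 1 below the filter). A minimum TPM of 5 gave 6 and 2 in the lowest and highest class. Median-of-ratios scaling gave 7 higher genes, with 3 and 0 in the 2 upper classes, and a prior without trend gave 0 in the highest class.

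The replicate block gave 206 (77 higher, 129 lower, in classes of 103, 86, 13 and 4), and with median-of-ratios scaling 19 (3 and 16, in classes of 7, 1 and 0 above the lowest). The number is no pairing in the labels. Without both libraries of number 1 the block fit gave 17 (5 and 12, with 2, 9 and 2 in the lowest, second and highest class), without number 2 it gave 176 (48 and 128, with 104 and 63 in the lower classes), and without number 3 it gave 621 (216 and 405, in classes of 387, 189, 42 and 3). For the number itself the count was 3 with a pseudocount of 0.1, 0 without a filter, with median-of-ratios scaling or with quantile normalization, 32 without trend and 108 with a robust prior, and 0 to 1833 without 1 library.

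Leaving out 1 library moved the calls between 0 and 46 (higher 0 to 11, lower 0 to 35), by class between 0 and 19, 0 and 20, 0 and 6, and 0 and 1. The median log2 fold change moved between -0.10 and 0.10. The difference in the TPM share of the 100 most abundant genes, -0.60 percentage points, moved between -3.17 and 1.84, and turned round when low CO2 replicate 2 (1.84) or control replicate 3 (0.970) was left out.

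For the difference from the other species, no filter gave 1450 genes (960 with a higher and 490 with a lower value), a minimum of 5 gave 92 (78 and 14), median-of-ratios scaling 79 and 66, and quantile normalization 95 lower. Against F. robusta alone there were 2138 (1753 and 385), against F. sonorensis 37 lower, and against F. trinervia 95 (64 higher). Leaving out 1 library gave 11 to 994 genes (8 to 882 and 3 to 112), the most without F. trinervia low CO2 replicate 2. The replicate block within species gave 132. All 4 named genes lost their call without a filter, with the block and median-of-ratios scaling together, and when low CO2 replicate 2 or 3 or control replicate 2 was left out. Without control replicate 3, Gene15647, Gene24861 and Gene06805 lost it, and without low CO2 replicate 1, Gene06805 did. No direction changed.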
